A study of Mus musculus with 15 samples.

Results

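The mouse T cell receptor beta locus (Trb) was represented by 53 of the 53762 genes in the count table: every gene whose symbol begins with Trbv, Trbd, Trbj or Trbc. These were 35 variable (V), 2 diversity (D), 14 joining (J) and 2 constant (C) segments. A developing T cell builds its beta chain gene by joining 1 V, 1 D and 1 J segment, and RNA splicing then attaches the joined exon to a C segment. Members of the V class differ in sequence, and each supplies the part of the beta chain up to and including the first bases of the CDR3, an antigen-binding loop. In the thymus, the finished receptor is tested on MHC molecules: cells whose receptor fits MHC class II normally become CD4 cells, and cells whose receptor fits MHC class I normally become CD8 cells. The part that each V segment takes of all V counts therefore reflects V use in a sorted population, though not as a count of cells. It is weighted by the RNA each cell holds and by segment length, and it depends on how reads across joined segments were counted.

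RNA was sequenced from mature thymocytes sorted out of irradiated CD45.1+ hosts of C57BL/6 background that had received mixed wild-type and mutant marrow, in 5 groups of 3 libraries. The wild-type (WT) cells were CD45.1+CD45.2+ competitors: CD4 single-positive (SP) cells from B2m-/- hosts, which lack a chain needed for MHC class I, and CD8 SP cells from I-Ab-/- hosts, which lack an MHC class II chain. The mutant cells were CD45.2+ and came from B2m-/- hosts. All 3 mutant groups carried Thpokfl/fl, Runx3fl/dYFP and Cd4-Cre, which the WT cells did not: CD8 SP and CD4+CD8+ cells without Thpok-RKF (Thpok-RKF-), and CD4+CD8+ cells with it (Thpok-RKF+). Below, SP is left out of the group names. Thpok, the product of Zbtb7b, drives the CD4 fate, and Runx3 drives the CD8 fate. The Cd4 promoter turns Cre on in CD4+CD8+ thymocytes, a stage after beta chain joining. The labels do not explain the name Thpok-RKF. Every gate was CD44lo, CD24lo, CD69lo and high for TCR beta protein, so all cells had been chosen for a beta chain at the surface. The labels give no ages, and they do not say that the replicates of a group came from separate animals. The p-values therefore measure the spread between these libraries, which may be technical. WT CD8 was the 1 group from a class II-deficient host, so in each comparison with it host, MHC class and cell group cannot be told apart.

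The libraries held 37311823 to 48607260 counts in genes. Zbtb7b lay between 768.2 and 823 CPM (TMM-scaled) in Thpok-RKF+ cells, between 27.4 and 79.1 in WT CD4 cells, and at 2.95 or less in the other libraries. Runx3 lay between 246.4 and 360.7 CPM in the mutant groups, which carry a floxed allele and a dYFP allele. Where the floxed exons lie is not given in the sources used here, so these counts do not check the deletion. All 6 mature T cell markers had counts in each group. In each group 2 of the 6 B cell markers had no count, among them Ms4a1, which was at 0 in every library. The B cell marker list nevertheless summed to between 357.4 and 1138 CPM, with 809.1 to 1138 in WT CD8 and 543.1 to 808.8 in WT CD4 libraries. Only 3 of the 6 had enough counts to be tested, so these sums rest on part of the list. The 5 NKT cell markers summed to between 169.4 and 330.5 CPM, and the 6 myeloid markers to between 54.6 and 108.1 CPM. The part of such cells in the segment counts was not tested. The gamma-delta markers found in the table, 3 of 6, summed to between 7.12 and 16.7 CPM.

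Sequences are shown first, because they set what a count can mean. They are from GENCODE M21 transcripts (GRCm38), matched by gene name for all 53 segments; the counts were made on mm39, so no coordinates are given. The D segments have 12 and 14 bases, far below the read length of 101, so a count for one comes from a read that reaches beyond it.
Trbd1: gggacagggggc
Trbd2: gggactgggggggc

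The J segments have 46 to 53 bases. Capitals mark the FGXG motif that ends the CDR3 loop of the chain: codons for phenylalanine (leucine also accepted), glycine, any residue and glycine, searched on the coding strand. It was present in 11 of 14 J segments and absent from Trbj1-6, Trbj1-7 and Trbj2-6. Trbj1-1 differed most between groups, Trbj1-5 had the most counts, and the last 3 lack the motif.
Trbj1-1: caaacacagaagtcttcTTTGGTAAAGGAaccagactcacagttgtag
Trbj1-5: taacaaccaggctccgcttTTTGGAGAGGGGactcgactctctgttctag
Trbj1-6: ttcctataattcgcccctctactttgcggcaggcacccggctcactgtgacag
Trbj1-7: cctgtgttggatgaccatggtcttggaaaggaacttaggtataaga
Trbj2-6: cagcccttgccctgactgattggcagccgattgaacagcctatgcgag

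The V segments were compared at the read length. No window of 101 bases in any of the 35 V transcripts was shared exactly with another of the 53 segments. Shortened reads, reads that only partly cover a V segment and the rest of the genome were not checked. The closest V pairs were Trbv13-2 with Trbv13-3 (90.6% identity), Trbv13-1 with Trbv13-2 (88.7%) and Trbv12-1 with Trbv12-2 (88.3%), so counts within these families are the least certain. Trbc1 and Trbc2 shared 28.4% and 30.6% of their windows, and how reads over such stretches were counted is not given in the sources used here. Below are the last 60 bases of the 7 V segments whose shares differed most plainly between groups, with the cysteine codon at which the CDR3 begins in capitals. The first 3 had larger shares in WT CD4 cells and the other 4 in WT CD8 cells.
Trbv2: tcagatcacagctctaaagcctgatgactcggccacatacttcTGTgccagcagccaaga
Trbv20: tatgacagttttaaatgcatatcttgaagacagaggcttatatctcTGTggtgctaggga
Trbv31: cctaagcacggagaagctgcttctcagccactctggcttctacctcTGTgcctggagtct
Trbv14: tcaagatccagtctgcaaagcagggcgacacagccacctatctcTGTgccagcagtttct
Trbv16: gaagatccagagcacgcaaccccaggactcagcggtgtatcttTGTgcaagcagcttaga
Trbv17: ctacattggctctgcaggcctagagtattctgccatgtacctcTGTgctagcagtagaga
Trbv29: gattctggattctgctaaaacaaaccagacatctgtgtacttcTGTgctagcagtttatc

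Each cysteine codon is followed by a different run of bases, which is the part of the CDR3 that the V segment supplies. Used V segments were also compared over their last 285 bases, keeping only pairs that aligned over at least 250 bases. Closest by this rule were Trbv16 for Trbv14 (68.1% identity), Trbv15 for Trbv16 (73.6%) and Trbv19 for Trbv17 (65.9%). For Trbv29 it was Trbv13-2 (68.8%), for Trbv2 Trbv26 (66.3%) and for Trbv31 Trbv17 (62.4%). Trbv20 aligned over too few bases to be placed. The rule sets these partners: aligned as whole transcripts, Trbv14 and Trbv31 had 70.7% identity over 304 bases, above either value given here. Trbv2 and Trbv20 lie upstream of the D segments, whereas Trbv31 is the 1 V segment that lies beyond Trbc2 in the locus order. Trbv14, Trbv16 and Trbv17 lie close together with only Trbv15 among them, and Trbv15 did not differ between WT groups (log2 ratio of shares 0.00 ± 0.11, SE).

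All 53 segments were accounted for. Trbv7, Trbv8, Trbv11, Trbv18, Trbv27 and Trbv28 had no count in any of the 15 libraries. With 624618 V counts in all, 0 counts allow a share of up to 0.00048% (3 counts, counting error only). All 6 are annotated as pseudogenes in GENCODE M21, as are 7 further V segments with counts: Trbv6, Trbv9, Trbv10, Trbv12-3, Trbv22, Trbv24 and Trbv25. The 13 together held 0.364 to 0.797% of V counts per library, mostly through Trbv24, which RefSeq lists as a V segment and no pseudogene. Trbv29, by contrast, is a gene in GENCODE and a pseudogene in RefSeq, and it had counts in all 15 libraries.

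The 17 V segments with a mean share of at least 1% are called used here; together they held 97.6% of V counts. Just inside this limit was Trbv26 with 1.03%, and just outside it was Trbv23 with 0.967%. The 5 leading V segments were Trbv16 (10.8% of V counts over all libraries), Trbv13-2 (9.95%), Trbv31 (8.22%), Trbv2 (8.14%) and Trbv19 (8.05%). Per base of transcript the order changed: Trbv13-2 led with 12.2 counts per base, followed by Trbv16 with 11.04 and Trbv31 with 8.54. V counts were spread about as evenly in each group. The effective number of V segments (the exponential of the Shannon entropy of the shares) was 15.8 ± 0.190 (SD, n = 3) in WT CD4, 15.8 ± 0.237 in WT CD8, 15.5 ± 0.0550 in Thpok-RKF- CD8, 15.5 ± 0.0736 in Thpok-RKF- CD4+CD8+ and 15.8 ± 0.154 in Thpok-RKF+ CD4+CD8+ cells.

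**Figure D1:**
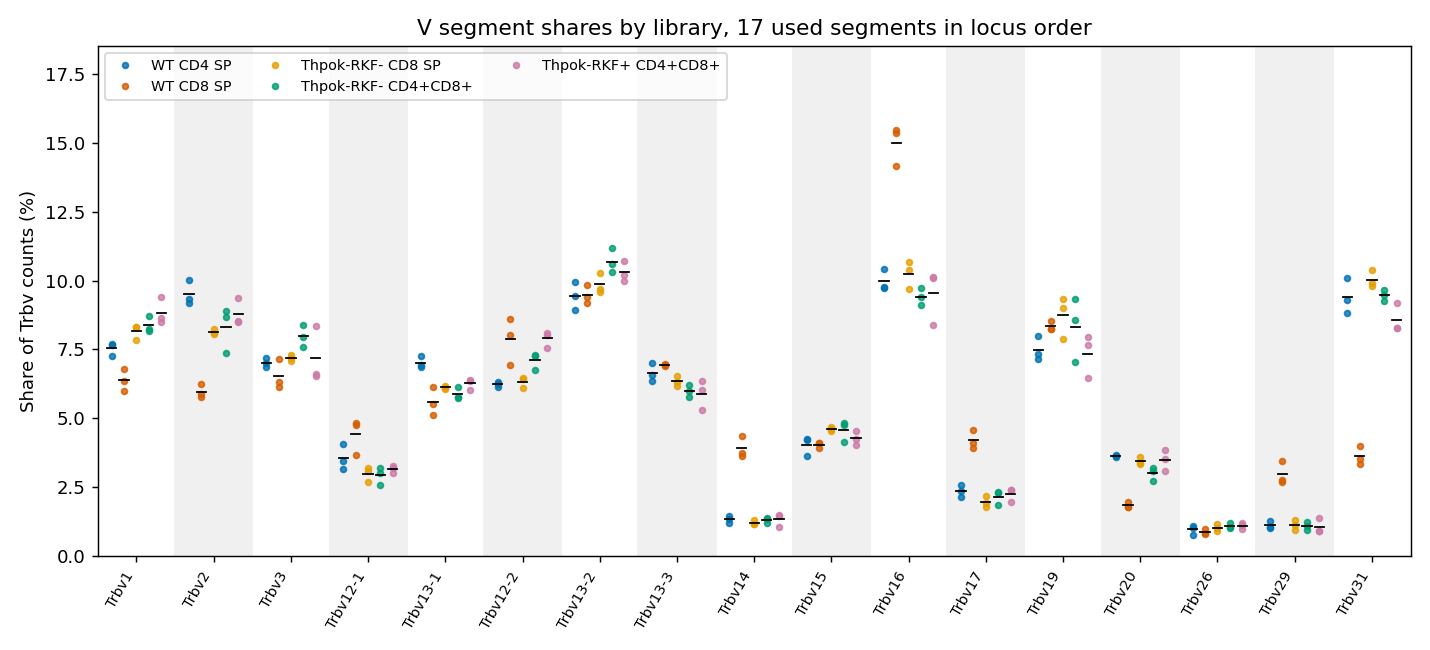
Share of V counts (%) held by each of the 17 used V segments, in locus order; each point is a library, colours are groups, and black bars are means of 3 libraries. WT CD8 stands apart at Trbv31, Trbv20, Trbv2, Trbv14, Trbv16, Trbv17, Trbv29 and, by a smaller gap, Trbv1, where none of its libraries overlaps any other group.

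The first comparison set the WT lineages against each other. Trbv31, Trbv20 and Trbv2 took larger shares of V counts in WT CD4 cells, and Trbv14, Trbv29, Trbv17 and Trbv16 took larger shares in WT CD8 cells. Together Trbv2, Trbv20 and Trbv31 held 22.6 ± 1.04% (SD, n = 3) of V counts in WT CD4 and 11.4 ± 0.580% in WT CD8 cells. Trbv14, Trbv17 and Trbv29 held 4.86 ± 0.326% and 11.1 ± 1.16%. These sets were formed after the values were seen, so their sums are descriptions with no test.

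Trbv31 had the widest gap between the WT means in percentage points among the used segments. It took 10.1, 8.83 and 9.28% of V counts in the WT CD4 libraries and 4.01, 3.53 and 3.33% in the WT CD8 libraries. It took 10.4, 9.92 and 9.81% in Thpok-RKF- CD8, 9.64, 9.27 and 9.47% in Thpok-RKF- CD4+CD8+ and 9.17, 8.29 and 8.28% in Thpok-RKF+ CD4+CD8+ libraries. The 3 WT CD8 libraries were low, and the 12 others did not overlap them. As a share, it was higher in WT CD4 than in WT CD8 cells by 1.38 ± 0.11 on the log2 scale (SE; edgeR quasi-likelihood test scaled to the Trbv total, Benjamini-Hochberg adjusted p = 1.17e-06). In CPM, where beta chain RNA as a whole also counts, the log2 difference was 1.72 ± 0.11 (edgeR adjusted p = 1.16e-07).

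Trbv20 held 3.63, 3.69 and 3.61% in WT CD4 and 1.79, 1.98 and 1.79% in WT CD8 libraries. It held 3.37, 3.62 and 3.34% in Thpok-RKF- CD8, 2.74, 3.11 and 3.22% in Thpok-RKF- CD4+CD8+ and 3.09, 3.86 and 3.55% in Thpok-RKF+ libraries, none of which overlapped WT CD8. Its share differed between WT groups by 0.98 ± 0.12 on the log2 scale (edgeR adjusted p = 9.76e-05). Trbv2 held 10.02, 9.32 and 9.20% in WT CD4, 6.26, 5.87 and 5.77% in WT CD8, 8.08, 8.07 and 8.24% in Thpok-RKF- CD8, 8.88, 8.66 and 7.37% in Thpok-RKF- CD4+CD8+ and 8.52, 8.49 and 9.37% in Thpok-RKF+ libraries. Its mutant libraries lay above every WT CD8 library, and all but 1 lay below every WT CD4 library. The WT difference was 0.67 ± 0.10 (edgeR adjusted p = 0.000393).

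Trbv14 ran the other way. It held 1.47, 1.36 and 1.22% in WT CD4, 4.37, 3.75 and 3.64% in WT CD8, 1.34, 1.16 and 1.18% in Thpok-RKF- CD8, 1.21, 1.37 and 1.39% in Thpok-RKF- CD4+CD8+ and 1.49, 1.46 and 1.08% in Thpok-RKF+ libraries. WT CD8 was high and the 4 other groups overlapped each other. The log2 ratio of shares, WT CD4 over WT CD8, was -1.54 ± 0.17 (edgeR adjusted p = 2.39e-05). Trbv29 held 1.09, 1.28 and 1.04% in WT CD4, 3.48, 2.78 and 2.68% in WT CD8, 1.14, 1.33 and 0.973% in Thpok-RKF- CD8, 1.24, 0.950 and 1.101% in Thpok-RKF- CD4+CD8+ and 1.39, 0.909 and 0.905% in Thpok-RKF+ libraries. Again WT CD8 was high and the other groups overlapped each other. Its ratio was -1.39 ± 0.21 (edgeR adjusted p = 0.000368). Trbv17, named after its values were seen, held 2.165, 2.59 and 2.37% against 4.59, 4.12 and 3.92% and lay between 1.78 and 2.42% in the mutant libraries, with a WT ratio of -0.83 ± 0.15 (edgeR adjusted p = 0.00122).

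Trbv16, the V segment with the most counts, held 9.74, 10.4 and 9.77% in WT CD4, 14.2, 15.5 and 15.3% in WT CD8, 10.7, 9.68 and 10.4% in Thpok-RKF- CD8, 9.72, 9.40 and 9.13% in Thpok-RKF- CD4+CD8+ and 8.38, 10.1 and 10.1% in Thpok-RKF+ libraries. Its share was lower in WT CD4 than in WT CD8 cells (log2 ratio -0.59 ± 0.10, edgeR adjusted p = 0.000974). In CPM its log2 difference was -0.25 ± 0.17 and did not pass the test (edgeR adjusted p = 0.367), because the V total was itself lower in WT CD8 cells. The V total was 799.6, 946.7 and 1018 CPM in WT CD4 and 641.6, 785.5 and 749.5 CPM in WT CD8 libraries.

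On the share scale, 11 of 25 tested V segments passed the test between WT groups, 6 with a larger share in WT CD4 (Trbv31, Trbv5, Trbv20, Trbv23, Trbv2 and Trbv13-1) and 5 with a smaller one (Trbv14, Trbv29, Trbv17, Trbv16 and Trbv12-2). With the same scaling, 24.4% of all 16550 tested genes were called, 3.21% higher and 21.2% lower; dividing by the Trbv total shifts the median log2 difference of all genes to -0.38. Libraries did not overlap in share for 11 of the 17 used V segments, beside 41% of all genes on that scale. In CPM, 17 of the 43 tested segments were called, 15 higher and 2 lower in WT CD4 cells, beside 18% of all genes, 7.72% higher and 10.3% lower. These were 9 V segments higher and 2 lower (Trbv14 and Trbv29), both D segments, Trbj1-1, Trbj1-2, Trbj2-1 and Trbc1. Trbj2-1 (0.65 ± 0.21, edgeR adjusted p = 0.0498) lost its call without WT CD4 replicate 2 or 3 or WT CD8 replicate 1 or 3 (adjusted p 0.119 to 0.157), and without the libraries numbered 1 (0.0530). Scaled to the total of the beta locus, 7 of the 17 calls were lost: Trbv1, Trbv3, Trbv13-1, Trbv24, Trbj1-2, Trbj2-1 and Trbc1, whose difference fell to 0.14; Trbv12-2, Trbv16 and Trbv17 passed there instead, all lower. The median log2 difference of the tested segments was 0.43, against -0.03 for all genes. Trbv13-1 and Trbv12-2 lost their share calls in several of the fits without 1 library, with adjusted p up to 0.132 (without WT CD8 replicate 1) and 0.135 (without WT CD8 replicate 3); Trbv5, with at most 0.138% of V counts in a library, lost its call without WT CD8 replicate 1 (adjusted p = 0.0503) or 3 (0.0553). Without the 5 libraries numbered 1, 9 of the 11 calls were kept, and Trbv13-1 (0.0826) and Trbv23 (0.0508) were lost.

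Other abundant V segments differed little or not detectably. Trbv13-2 held 9.94, 8.94 and 9.42% in WT CD4, 9.40, 9.19 and 9.85% in WT CD8, 10.3, 9.71 and 9.59% in Thpok-RKF- CD8, 11.2, 10.3 and 10.6% in Thpok-RKF- CD4+CD8+ and 10.7, 9.99 and 10.2% in Thpok-RKF+ libraries. All groups overlapped at least 1 other, and the WT ratio was -0.01 ± 0.09 on the log2 scale. Trbv19 held 7.14, 7.97 and 7.33% in WT CD4, 8.26, 8.26 and 8.54% in WT CD8, 7.89, 9.33 and 8.99% in Thpok-RKF- CD8, 7.06, 8.58 and 9.32% in Thpok-RKF- CD4+CD8+ and 6.47, 7.94 and 7.65% in Thpok-RKF+ libraries. Its WT libraries did not overlap, but the WT ratio, -0.16 ± 0.13, did not pass the test (edgeR adjusted p = 0.398).

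Trbv1, the first V segment of the locus, held 7.67, 7.71 and 7.26% in WT CD4, 6.79, 6.01 and 6.35% in WT CD8, 7.84, 8.32 and 8.32% in Thpok-RKF- CD8, 8.71, 8.23 and 8.17% in Thpok-RKF- CD4+CD8+ and 9.40, 8.62 and 8.48% in Thpok-RKF+ libraries. The groups of WT cells did not overlap, but the ratio of shares, 0.24 ± 0.10, did not pass the test (edgeR adjusted p = 0.0835). Trbv3 held 7.18, 7.03 and 6.85% in WT CD4, 7.14, 6.32 and 6.13% in WT CD8, 7.29, 7.08 and 7.19% in Thpok-RKF- CD8, 8.38, 7.94 and 7.596% in Thpok-RKF- CD4+CD8+ and 8.36, 6.55 and 6.61% in Thpok-RKF+ libraries. Its ratio between WT groups was 0.10 ± 0.11, and the groups overlapped.

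The second comparison kept the CD8 gate and set Thpok-RKF- mutant cells against WT CD8 cells. By share, 12 of 25 tested V segments passed, 6 larger and 6 smaller in the mutant cells, beside 35.4% of all genes with that scaling (2.65% higher, 32.7% lower), whose median shifts to -0.51. Shares did not overlap for 12 of the 17 used V segments, beside 52.7% of all genes on that scale. Larger were Trbv5, Trbv31 (1.47 ± 0.11 on the log2 scale, edgeR adjusted p = 3.48e-07), Trbv20 (0.89 ± 0.12, 7.18e-05), Trbv23, Trbv2 (0.45 ± 0.10, 0.00357) and Trbv1 (0.35 ± 0.10, 0.0100). Smaller were Trbv14 (-1.68 ± 0.17, 4.29e-06), Trbv29 (-1.38 ± 0.21, 0.000165), Trbv17 (-1.09 ± 0.15, 6.04e-05), Trbv12-1 (-0.56 ± 0.15, 0.00925), Trbv16 (-0.55 ± 0.10, 0.000749) and Trbv12-2. Trbv12-2 lost this call without any 1 of 5 libraries (adjusted p up to 0.143, without WT CD8 replicate 3), Trbv1 without WT CD8 replicate 2 (0.0505), and Trbv5 (0.0654) and Trbv23 (0.0602) without the libraries numbered 1. This comparison and the first share the WT CD8 libraries.

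The third comparison set the same mutant CD8 cells against WT CD4 cells, which came from the same kind of host but differ in genotype and gate. No V segment passed the test, by share or in CPM (edgeR; 2 and 3 of 25 had an unadjusted p below 0.05, and 3, Trbv1, Trbv12-3 and Trbv31, passed the DESeq2 Wald test in CPM). With a replicate block, 4 passed in CPM, Trbv19 (0.39 on the log2 scale, edgeR adjusted p = 0.0170), Trbv1 (0.28, 0.0335), Trbv12-3 (0.0444) and Trbv15 (0.36, 0.0459). Trbv19 also passed without the libraries numbered 1 (0.0321), and without WT CD4 replicate 2 so did Trbv12-3 (0.0140) and 1 V share. The share test was not run with a replicate block. By share, 20.7% of all genes were called with that scaling, whose median shifts to -0.17. The mean shares of the 17 used V segments differed by ratios between 0.831 (Trbv17) and 1.17 (Trbv19). For Trbv31 the log2 ratio was 0.09 ± 0.10, for Trbv14 -0.14 ± 0.16, for Trbv29 0.01 ± 0.21, for Trbv16 0.04 ± 0.10 and for Trbv20 -0.08 ± 0.12. Missing the test does not show that these shares were equal: Trbv2, at -0.23 ± 0.10, had libraries that did not overlap (edgeR adjusted p = 0.146), nor did Trbv1, Trbv13-1 and Trbv15. These were 4 of 17 used V segments, beside 36.9% of all genes on that scale.

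**Figure D2:**
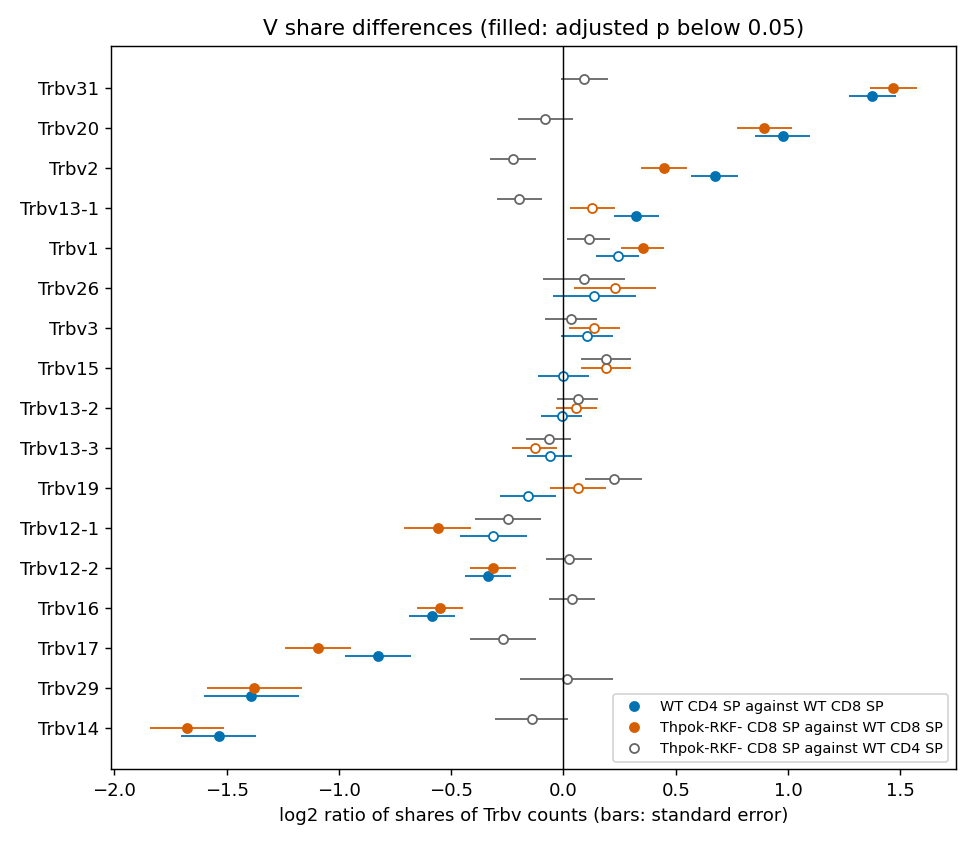
Log2 ratio of V shares for the 17 used segments in 3 comparisons, with standard errors; filled points passed the edgeR test scaled to the Trbv total. Ratios against WT CD8 reach 1.47 for Trbv31 and -1.68 for Trbv14, whereas those of Thpok-RKF- CD8 against WT CD4 lie near 0 and none is filled.

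Whole V profiles gave the same order. The distance between libraries was taken as the percentage points of V counts that would have to move to make the shares equal. It ran from 13.2 to 17.5 points between WT CD4 and WT CD8 libraries (median 15.4) and from 14.1 to 16.4 between Thpok-RKF- CD8 and WT CD8 libraries (median 16.0). Between Thpok-RKF- CD8 and WT CD4 libraries it ran from 4.11 to 5.55 (median 4.58). WT CD4 libraries lay 5.11 to 7.25 points from Thpok-RKF- CD4+CD8+ and 4.13 to 8.12 from Thpok-RKF+ libraries, and WT CD8 libraries lay at least 14.5 points from each of these. Within groups the distances ran from 1.63 to 5.92 points. These distances are descriptions with no test.

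**Figure D3:**
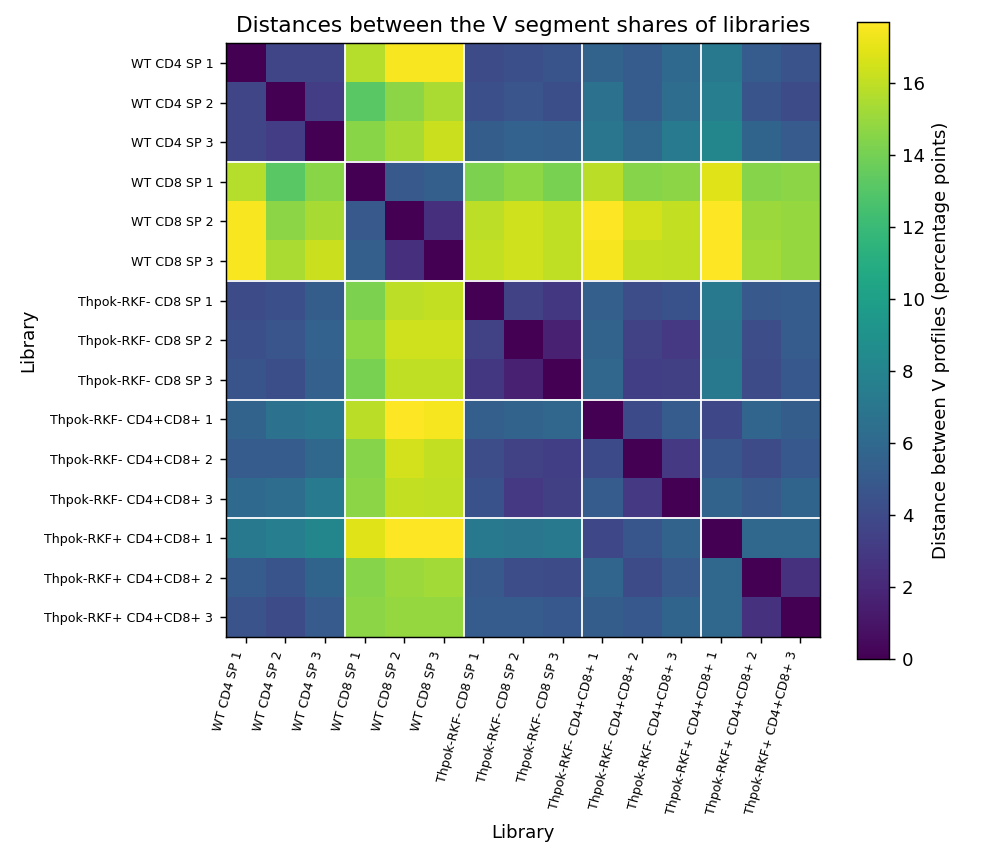
Distance between the V shares of each pair of libraries, in percentage points; white lines separate groups of 3 libraries. The WT CD8 rows and columns stand at 13.2 points or more from every other group, and all other pairs lie at 8.12 points or less.

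The WT difference was also set against the difference between the Thpok-RKF- groups (CD4+CD8+ less CD8). The difference of differences passed in CPM for 17 of 43 segments, beside 14.3% of all genes, and by share for 9 of 25 V segments, beside 21.1% of all genes.

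Among the mutant groups, no V segment passed the test. Between Thpok-RKF- CD4+CD8+ and Thpok-RKF- CD8 cells, which share genotype and host, 0 of the 43 tested segments were called in CPM (edgeR; 4 had an unadjusted p below 0.05, and 0 passed DESeq2), beside 2.44% of all genes. By share, 0 of 25 V segments were called and 0 had an unadjusted p below 0.05, beside 2.75% of all genes. Mean share ratios of the used V segments lay between 0.877 (Trbv20) and 1.12 (Trbv12-2). Trbv31, Trbv20, Trbv3, Trbv12-2 and Trbv13-2 had shares that did not overlap between these groups, without passing the test; on that scale 24.6% of all genes did not overlap.

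Between Thpok-RKF+ and Thpok-RKF- CD4+CD8+ cells, again 0 of 43 segments were called in CPM (edgeR; 7 had an unadjusted p below 0.05, and 1, Trbd1, passed DESeq2), beside 0.961% of all genes. No V share had an unadjusted p below 0.05, beside 0.489% of all genes called on that scale. Shares did not overlap for 2 used V segments, Trbv12-2 and Trbv31, beside 17% of all genes, and mean share ratios of the used V segments ran from 0.884 (Trbv19) to 1.16 (Trbv20). Thpok-RKF+ replicate 1 decided part of this count: without it 4 segments passed, namely Trbd1 (log2 difference 1.14, edgeR adjusted p = 0.00538), Trbc1 (0.58, 0.00796), Trbv2 (0.43, 0.0350) and Trbv20 (0.61, 0.0459). In that library 11.2% of counted reads were assigned to no feature, against 5.28 and 5.65% in the other libraries of its group. The part of this in the result was not tested.

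The constant segments carried most reads of the locus, 66.4 to 69.7% in every library. The C total was 2076, 2260 and 2688 CPM in WT CD4, 1511, 1865 and 1833 in WT CD8, 2434, 2676 and 2776 in Thpok-RKF- CD8, 2065, 2402 and 2366 in Thpok-RKF- CD4+CD8+ and 2176, 3118 and 2881 in Thpok-RKF+ libraries. WT CD8 was lowest, with no overlap with any other group. Lower RNA per cell and fewer cells with the segment cannot be told apart in bulk libraries. Trbc1 was higher in WT CD4 than in WT CD8 cells by 0.55 ± 0.15 on the log2 scale of CPM (edgeR adjusted p = 0.0160), a call lost without WT CD4 replicate 3 (0.0604) or WT CD8 replicate 1 (0.0585). Trbc2 had 0.36 ± 0.14 (0.0854).

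Thpok-RKF- CD8 cells exceeded WT CD8 cells at both C segments, by 0.72 ± 0.15 for Trbc1 (edgeR adjusted p = 0.00281) and 0.53 ± 0.14 for Trbc2 (0.0136). Trbc2 lost its call without WT CD8 replicate 1 or Thpok-RKF- CD8 replicate 2 or 3 (adjusted p 0.0515 to 0.0611). Scaled to the total of the beta locus, neither passed, and Trbc2 turned to -0.0736. The alpha chain constant gene Trac did not move with them: it had 1062, 1142 and 1272 CPM in these mutant libraries, 1139, 1447 and 1431 in WT CD8 and 1936, 1910 and 2575 in WT CD4 libraries. Trbc1 took 40.3, 39.1 and 39.7% of C counts in WT CD4, 36.9, 35.3 and 37.2% in WT CD8, 41.0, 38.5 and 39.2% in Thpok-RKF- CD8, 39.9, 38.6 and 37.4% in Thpok-RKF- CD4+CD8+ and 40.2, 43.9 and 42.9% in Thpok-RKF+ libraries. Trbc2 took the rest. The WT CD8 share was the lowest of the groups, and that of Thpok-RKF+ lay above Thpok-RKF- CD4+CD8+ in every library. These shares were not tested.

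**Figure D4:**
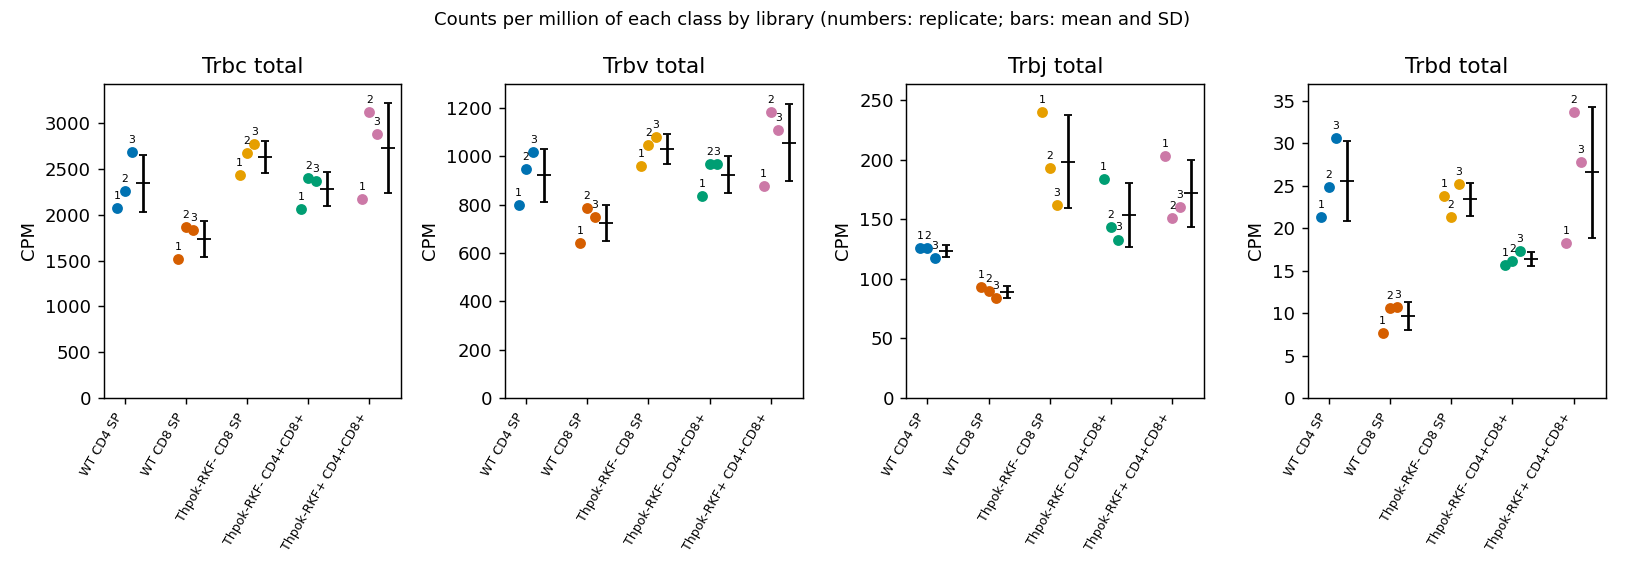
Total CPM of the C, V, J and D segments in each library, numbered by replicate, with the mean and SD of each group (n = 3). WT CD8 is lowest in all 4 classes, and the J total is highest in the library numbered 1 of each mutant group.

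As a class, the D segments were lower in WT CD8 than in all other libraries. Trbd1 had 12.3, 14.9 and 17.5 CPM in WT CD4, 4.15, 4.69 and 4.64 in WT CD8, 10.8, 8.40 and 8.42 in Thpok-RKF- CD8, 7.75, 7.29 and 7.13 in Thpok-RKF- CD4+CD8+ and 10.4, 17.9 and 14.4 in Thpok-RKF+ libraries. No library of another group was as low as those of WT CD8. The log2 difference between WT groups was 1.73 ± 0.22 (edgeR adjusted p = 8.48e-05). Trbd2, which opens the second D-J-C cluster, had 9.07, 10.01 and 13.2 CPM in WT CD4, 3.56, 5.87 and 6.08 in WT CD8, 12.9, 12.9 and 16.8 in Thpok-RKF- CD8, 7.93, 8.91 and 10.2 in Thpok-RKF- CD4+CD8+ and 7.89, 15.8 and 13.4 in Thpok-RKF+ libraries. Its WT difference was 1.05 ± 0.28 (edgeR adjusted p = 0.0159), lost without WT CD4 replicate 3 (0.0603) or WT CD8 replicate 1 (0.0613).

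The balance of the D segments also differed. Trbd1 took 57.5, 59.7 and 57.0% of D counts in WT CD4, 53.8, 44.4 and 43.3% in WT CD8, 45.7, 39.5 and 33.5% in Thpok-RKF- CD8, 49.4, 45.0 and 41.2% in Thpok-RKF- CD4+CD8+ and 56.9, 53.0 and 51.7% in Thpok-RKF+ libraries. WT CD4 lay above all libraries of each other group, and Thpok-RKF+ above all Thpok-RKF- libraries. In CPM, Thpok-RKF- CD8 cells had less Trbd1 than WT CD4 cells (-0.69 ± 0.21, edgeR adjusted p = 0.0373, lost without any 1 of 4 libraries, with adjusted p from 0.0655 to 0.130), and the value for Trbd2 was 0.40 ± 0.27 (0.341). With Thpok-RKF present or absent in CD4+CD8+ cells, Trbd1 stood at 0.94 ± 0.21 with an edgeR adjusted p of 0.0531, just outside the threshold; across the alternatives it ran down to 0.00108 with DESeq2. With libraries of 290 to 1560 D counts, D values have the fewest counts of the 4 classes.

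Among the J segments, Trbj1-5 led with a mean of 16.5% of J counts, followed by Trbj1-4 (11.4%), Trbj2-7 (10.54%) and Trbj1-3 (10.1%). All 14 had counts in every library. Trbj2-6, the 1 J pseudogene in the annotation, held 7.35% of J counts on average, more than 7 of the other J segments. It held 8.30, 7.13 and 7.58% in WT CD4, 7.67, 7.86 and 8.22% in WT CD8, 6.04, 6.91 and 7.65% in Thpok-RKF- CD8, 5.99, 7.09 and 7.98% in Thpok-RKF- CD4+CD8+ and 6.16, 7.95 and 7.76% in Thpok-RKF+ libraries. Like Trbj1-6 and Trbj1-7, it lacks the motif shown above. The files do not separate J counts of joined chains from those of unjoined segments.

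Trbj1-1, the J segment next to Trbd1, stood apart by share, and was named after its values were seen. It held 6.16, 7.44 and 10.7% of J counts in WT CD4, 3.50, 4.29 and 3.62% in WT CD8, 4.13, 3.03 and 3.63% in Thpok-RKF- CD8, 3.76, 3.33 and 3.81% in Thpok-RKF- CD4+CD8+ and 3.27, 6.45 and 5.56% in Thpok-RKF+ libraries. WT CD4 was high, and Thpok-RKF+ spanned the range between. Scaled to the Trbj total, WT CD4 exceeded WT CD8 by 1.09 ± 0.29 on the log2 scale (edgeR adjusted p = 0.0122). This was the 1 call among 14 J segments, beside 26.1% of all genes. The neighbouring Trbj1-2 held 7.43, 7.77 and 10.1% against 4.63, 6.71 and 5.63%, with 0.58 on the log2 scale (0.0711). No J share test was refitted without single libraries, so how far these values rest on WT CD4 replicate 3 is not known. In CPM, Trbd1, Trbj1-1 (1.55 ± 0.28) and Trbj1-2 (1.05 ± 0.25), neighbours in the locus, were all called higher in WT CD4 cells, whereas Trbj1-3 to Trbj1-7 had log2 differences from 0.11 to 0.36 that did not pass.

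The leading J segments moved less. Trbj1-5 held 14.9, 14.97 and 14.0% in WT CD4, 17.5, 15.7 and 15.2% in WT CD8, 19.0, 17.9 and 17.6% in Thpok-RKF- CD8, 18.3, 17.6 and 16.3% in Thpok-RKF- CD4+CD8+ and 19.0, 14.3 and 14.9% in Thpok-RKF+ libraries. Trbj1-4 held 10.7, 10.6 and 9.79%, 11.3, 10.4 and 12.2%, 11.7, 12.6 and 12.3%, 12.01, 12.4 and 10.8%, and 11.5, 11.6 and 10.9% in the same order of groups. The group ranges of Trbj1-4 overlapped between WT CD4 and WT CD8. In that order Trbj2-7 held 10.1, 11.2 and 8.76%, 12.4, 11.7 and 11.9%, 9.04, 10.2 and 10.4%, 9.07, 10.4 and 11.9%, and 10.8, 10.6 and 9.54%. WT CD4 libraries were lowest for Trbj1-5 apart from Thpok-RKF+ replicates 2 and 3, and WT CD8 stood above WT CD4 for Trbj2-7.

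Trbj1-3 held 9.77, 10.1 and 8.47%, 9.95, 10.2 and 11.5%, 9.65, 11.02 and 10.1%, 10.4, 10.7 and 9.07%, and 9.94, 10.4 and 10.6%, with every group overlapping every other. Trbj1-6 held 6.72, 6.59 and 6.88% in WT CD4, 7.53, 7.46 and 7.89% in WT CD8, 8.95, 8.56 and 8.05% in Thpok-RKF- CD8, 9.34, 7.72 and 8.60% in Thpok-RKF- CD4+CD8+ and 8.47, 7.94 and 7.40% in Thpok-RKF+ libraries. WT CD4 was lowest, with no overlap. The Trbj1 cluster as a whole held 63.9 ± 1.07% of J counts in WT CD4, 63.0 ± 1.13% in WT CD8, 67.9 ± 2.57% in Thpok-RKF- CD8, 65.9 ± 3.98% in Thpok-RKF- CD4+CD8+ and 65.3 ± 1.98% in Thpok-RKF+ cells. By share of J counts, Thpok-RKF- CD8 had less Trbj1-1 than WT CD4 (-1.17 ± 0.29, edgeR adjusted p = 0.00641) and more Trbj1-7 (0.59 ± 0.22, 0.0458), 2 of 14 J segments, beside 38.2% of all genes.

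**Figure D5:**
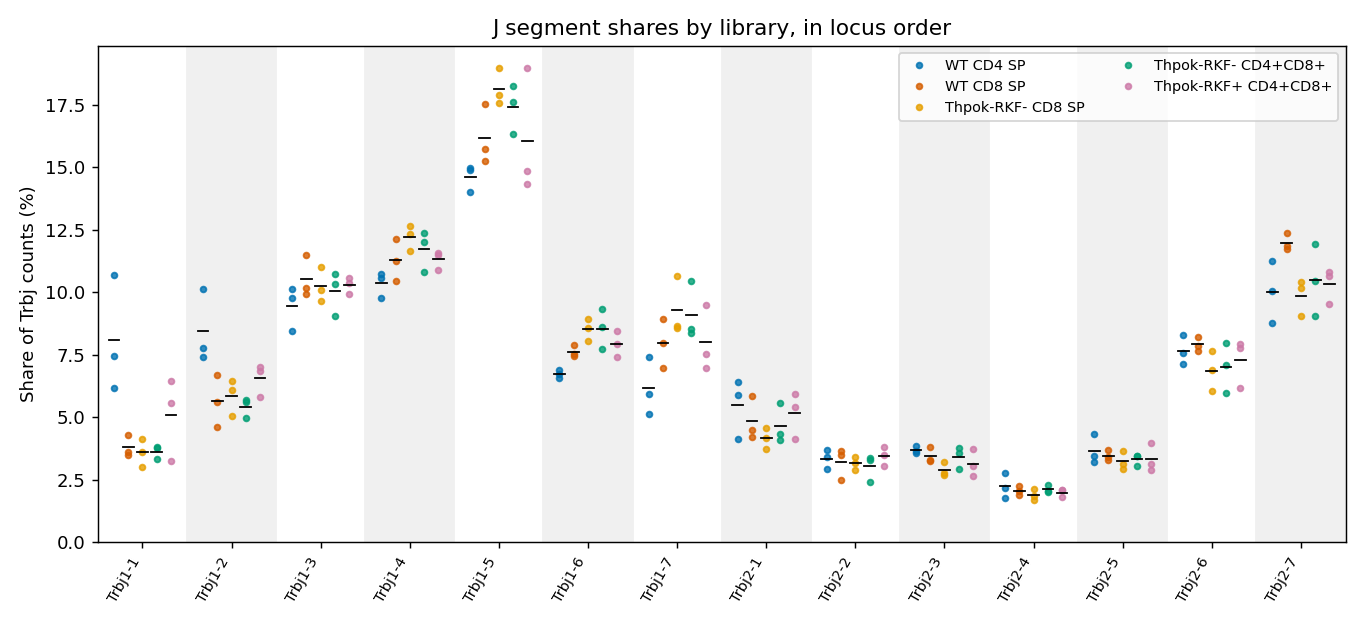
Share of J counts (%) held by each of the 14 J segments, in locus order; each point is a library, colours are groups, and black bars are means of 3 libraries. WT CD4 libraries are high at Trbj1-1 (6.16 to 10.7%) and low at Trbj1-6 (6.59 to 6.88%).

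In CPM the J segments stood high in mutant cells. The J total was 126.0, 126.2 and 117.7 CPM in WT CD4, 93.5, 89.4 and 83.6 in WT CD8, 239.9, 193.2 and 162.0 in Thpok-RKF- CD8, 183.7, 143.8 and 133.0 in Thpok-RKF- CD4+CD8+ and 203.3, 151.2 and 160.6 in Thpok-RKF+ libraries. All mutant libraries lay above all WT libraries. Against WT CD8 cells, all 14 J segments were called higher in Thpok-RKF- CD8 cells, by 0.86 to 1.40 on the log2 scale of CPM. Trbj2-4 lost its call without WT CD8 replicate 2 (edgeR adjusted p = 0.0965) or 3 (0.122) or Thpok-RKF- CD8 replicate 1 (0.154) or 2 (0.0663), and Trbj1-1 without WT CD8 replicate 3 (0.0543) or Thpok-RKF- CD8 replicate 1 (0.0644). That comparison had 33 of 43 segments called, 30 higher and 3 lower, beside 18.4% of all genes, 7.77% higher and 10.6% lower: 12 V segments higher and 3 lower, both D, 14 J and both C segments. Of these V calls, Trbv13-1, Trbv15, Trbv17, Trbv24 and Trbv26 were also lost in at least 1 fit without a single library. Their edgeR adjusted p there ran up to 0.0924 (Trbv24, without WT CD8 replicate 2), and Trbv13-1, Trbv17 and Trbv24 were lost in several such fits. The median log2 difference of the tested segments was 0.87, against 0.00 for all genes.

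The height of the J segments against WT CD8 cells depended on the scale. Dividing by the J total removes any rise that all J segments share, so that scale cannot show the height of the class. By share of J counts, none of the 14 passed in that comparison (0 had an unadjusted p below 0.05), beside 61.8% of all genes, whose median shifts to -1.12, and 9 of them, Trbj1-1, Trbj1-3 and all 7 Trbj2 segments, turned to values between -0.02 and -0.28. Scaled to the total of the beta locus, 13 of the 43 segments were called and no J segment passed. All 14 J segments stayed higher there, by 0.25 (Trbj2-7) to 0.79 (Trbj1-7) on the log2 scale. J counts per V count were 0.194 ± 0.0505 (SD, n = 3) in Thpok-RKF- CD8 and 0.124 ± 0.0191 in WT CD8 libraries. Against WT CD4 cells, 8 segments were called in CPM, Trbd1 lower and 7 J segments higher, beside 17.7% of all genes, 8.91% higher and 8.75% lower. These J segments were Trbj1-3 (0.80 ± 0.20), Trbj1-4 (0.91 ± 0.19), Trbj1-5 (1.00 ± 0.24), Trbj1-6 (1.04 ± 0.23), Trbj1-7 (1.30 ± 0.30), Trbj2-6 (0.50 ± 0.15) and Trbj2-7 (0.65 ± 0.18). By share of J counts, Trbj2-6 and Trbj2-7 turned to -0.16 and -0.02. Scaled to the total of the beta locus, none of these 7 J segments passed (edgeR adjusted p 0.0677 to 0.350), and only Trbd1 kept its call. The 7 stayed higher there, by 0.30 (Trbj2-6) to 1.09 (Trbj1-7) on the log2 scale. Leaving out single libraries left 4 to 7 of the 8 calls: without Thpok-RKF- CD8 replicate 2 or WT CD4 replicate 3, Trbd1, Trbj1-3, Trbj2-6 and Trbj2-7 were lost.

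A library measure moved with the J counts. In each of the 5 groups the library numbered 1 had the most J counts per V count (0.158 against 0.133 and 0.116 in WT CD4, and 0.249 against 0.184 and 0.150 in Thpok-RKF- CD8). It also had the largest percentage of counted reads assigned to no feature (7.74 against 5.89 and 5.09%, and 9.93 against 8.86 and 7.23%). The counting mode was not given, so where such reads lie is not known. The part of this measure in the J result was not tested. Without the 5 libraries numbered 1, Trbj2-3 (edgeR adjusted p = 0.0593) and Trbj2-4 (0.0783) lost their calls against WT CD8 and the other J segments kept theirs.

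Genes that make and accompany the beta chain were looked at as a list of 19: the recombination enzymes and end-joining factors, and the receptor's partner chains. Between WT groups, 2 were higher in WT CD4 cells, Trac (0.68 ± 0.17, edgeR adjusted p = 0.0130) and Cd247, the receptor's zeta chain (0.32 ± 0.09, 0.0250), and 3 were lower, Hmgb2, Cd3e and Atm, beside 7.72% of all genes higher and 10.3% lower. The list's median log2 difference was 0.09, against -0.03 for all genes. Dntt, whose product TdT adds bases without a template at V-D-J joints, had 20.1, 20.3 and 12.98 CPM in WT CD4, 12.2, 15.2 and 18.0 in WT CD8, 106.7, 186.7 and 197.4 in Thpok-RKF- CD8, 31.2, 44.1 and 54.1 in Thpok-RKF- CD4+CD8+ and 39.3, 23.3 and 27.8 in Thpok-RKF+ libraries. It was higher in Thpok-RKF- CD8 cells than in WT CD8 (3.43 ± 0.30, edgeR adjusted p = 1.95e-06) and WT CD4 cells (3.198 ± 0.30, 5.60e-06), and fell from them to Thpok-RKF- CD4+CD8+ cells (-1.92 ± 0.28, 0.00136).

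Against WT CD8, Dntt was the 1 list member called higher in Thpok-RKF- CD8 cells, and Hmgb2 and Xrcc5 were lower, beside 7.77% of all genes higher and 10.6% lower. Against WT CD4, Dntt and Cd3e were higher and 5 members lower, Hmgb2, Trac, Cd247, Xrcc5 and Xrcc6, beside 8.91% of all genes higher and 8.75% lower. Between the Thpok-RKF- groups, Hmgb2 was higher and Dntt lower in CD4+CD8+ cells, beside 2.44% of all genes called. The recombinase genes Rag1 and Rag2 lay at or below 7.38 and 1.78 CPM and passed no test in these comparisons. Cd247 had 2375, 2772 and 2699 CPM in Thpok-RKF+ and 427.4, 459.3 and 421.6 in Thpok-RKF- CD4+CD8+ libraries, the 1 list member called there, beside 0.961% of all genes (2.58 ± 0.10, edgeR adjusted p = 1.80e-09), with no comparable change in any beta segment. Markers of immature CD4+CD8+ thymocytes, 6 genes that include Dntt, Rag1 and Rag2, summed to 187.2 to 242.8 CPM in WT CD4, 85.6 to 110.4 in WT CD8, 286.6 to 331.7 in Thpok-RKF- CD8, 143.3 to 165.6 in Thpok-RKF- CD4+CD8+ and 187.2 to 228.8 in Thpok-RKF+ libraries. Of these 6, 3 (Dntt, Cd1d1 and Arpp21) were called higher in Thpok-RKF- CD8 than in WT CD8 cells, beside 7.77% of all genes. Their sum was lowest in WT CD8, as were the D and J totals, and its part in those results was not tested.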

How the data were processed

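RNA of sorted thymocytes was extracted with a micro-scale kit and made into SMARTer Ultra Low Input libraries, read as 101 bp pairs, per the labels' protocols. Tools listed in the submitters' processing notes are STAR, HTSeq, Trimmomatic, DESeq2 and bcl2fastq 2.17, with mm39 as the build. The annotation, the use of strand and the counting mode were not given in those sources, so reads of genes that overlap or lie antisense to a segment cannot be told apart. The authors deposited raw counts per gene and library. Lines that name no gene held 15.9 to 21.0% of counted reads and were left out, as were 3 columns that match no sample label. A table of normalised values was not used. Replicate pairs all differed beyond sampling noise (chi-square over its degrees of freedom at least 11.1).

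The 53 segments were found by symbol. Shares are counts over the class total. Tests used edgeR 4.0.16 (quasi-likelihood F test, TMM, expression filter with minimum count 10 and total 15) on all 15 libraries and the whole table: 16550 genes were tested, among them 43 segments (25 V, 2 D, 14 J and 2 C), with Benjamini-Hochberg adjustment and a threshold of 0.05. Segments outside the filter are given by share alone. Standard errors are the log2 difference over the square root of F. For the test on shares, library sizes were set to the Trbv or Trbj total; this and the difference of differences were added after seeing the data. The members and lists were chosen with earlier results of these data known. Values in every library were given for the 5 V and 4 J segments of highest mean share, the D and C segments, and the 12 segments with the smallest adjusted p; Trbv17, Trbj1-1, Trbj1-2 and Trbj1-7 were among those chosen later, from their values, and given in part. Other settings tried were no low-count filter, relative log expression factors, DESeq2 1.42.0, only the compared groups, a replicate block, scaling to the beta locus, leaving out libraries, and for shares segment length and a count minimum of 10. Share tests were refitted with libraries left out for V segments only, and never with a replicate block. Identities and shared windows were computed with Biopython 1.88.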

Additional observations from a re-analysis of the deposited data

Results flagged for a closer look

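The WT difference (CD4 less CD8) was set against the Thpok-RKF- difference (CD4+CD8+ less CD8) in 1 edgeR contrast of 4 groups, on the log2 scale of CPM. The difference of differences passed (edgeR, Benjamini-Hochberg adjusted) for 17 of 43 tested segments, beside 14.3% of all genes. It was positive, the WT difference being the larger, for Trbv5 (2.52), Trbd1 (2.05), Trbv31 (1.96), Trbj1-1 (1.92), Trbd2 (1.71), Trbv20 (1.66), Trbv23 (1.54), Trbj1-2 (1.54), Trbv24 (1.26), Trbv2 (1.15), Trbv13-1 (0.88), Trbc1 (0.80), Trbj2-6 (0.77), Trbv1 (0.71) and Trbv3 (0.46). It was negative for Trbv14 (-1.15) and Trbv29 (-0.80). Scaled to the Trbv total, 9 of 25 V segments passed, beside 21.1% of all genes. On that scale Trbv5 (1.99, adjusted p = 0.0591), Trbv24 (0.72, 0.165), Trbv13-1 (0.38, 0.0694), Trbv1 (0.20, 0.318) and Trbv3, which turned to -0.0459 (0.884), did not pass. The WT groups differ in host and the Thpok-RKF- groups do not, so host and cell group cannot be told apart in this contrast.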

How the results depend on the processing

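Of the counts of called segments, that for WT CD4 against WT CD8 (17) and that for the Thpok-RKF- groups (0) stayed within 1.5 times under every alternative run, though not always for the same segments, with 12 to 17 and 0 to 0 called when single libraries were left out. For Thpok-RKF- CD8 against WT CD8, 33 segments became 13 scaled to the total of the beta locus, and its V and J calls became 12 scaled to the class total; leaving out libraries gave 28 to 30. Directions turned there for Trbc2 (-0.0736) and Trbv13-2 (-0.0379) scaled to the beta locus, and for Trbj1-1 (-0.0805), Trbj1-3 (-0.0383), Trbj2-1 (-0.22), Trbj2-2 (-0.0216), Trbj2-3 (-0.26), Trbj2-4 (-0.12), Trbj2-5 (-0.10), Trbj2-6 (-0.21) and Trbj2-7 (-0.28) scaled to the class total. For Thpok-RKF- CD8 against WT CD4, 8 became 5 without the low-count filter, 5 with only the compared groups, 1 scaled to the beta locus, 2 V and J calls scaled to the class total, and 4 to 7 without single libraries; Trbj2-6 (-0.16) and Trbj2-7 (-0.0225) turned by class total. For Thpok-RKF+ against Thpok-RKF-, 0 became 1 with relative log expression factors, 1 with DESeq2, 5 without the libraries numbered 1 (Trbd1, Trbc1, Trbj1-1, Trbv12-2 and Trbv16) and 0 to 4 without single libraries. The cause of these changes was not tested. Replicate numbers were not treated as pairs: correlations of same-numbered libraries were 0.22 or less and not above 0.1 in every pair of any comparison. This rule does not exclude an effect shared by libraries of the same number. Between libraries numbered 1, Thpok-RKF- CD8 and WT CD8 had 0.146 (at most -0.0703 with other numbers). The Thpok-RKF- groups had 0.221 (-0.0842), the CD4+CD8+ groups 0.137 (-0.0550) and the WT groups 0.0650 (-0.0169). Thpok-RKF- CD8 and WT CD4 had -0.0138 (0.0284). With the replicate block, 19, 35, 12, 0 and 0 segments were called. The effective number of V segments per base of length was 16.1 in WT CD4, 15.8 in Thpok-RKF- CD8, 15.8 in Thpok-RKF- CD4+CD8+ and 16.0 in Thpok-RKF+ cells; with segments of at least 10 counts it was 15.4, 15.3 and 15.6 in the mutant groups. Leaving out libraries moved it between 15.4 and 15.9, and the Trbj1 share between 62.6 and 69.2%. D segments, at 290 to 1560 counts per library, are the least precise.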
